A study of Mus musculus with 12 samples.

Results

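This account covers 8 genes of the red cell lineage: the embryonic globin genes Hba-x, Hbb-bh1 and Hbb-y, the alpha-globin genes Hba-a1 and Hba-a2, the heme synthesis gene Alas2, and the transcription factor genes Gata1 and Klf1. They were taken by symbol, with the longest transcript model kept for each, from 22878 gene symbols measured by RNA-seq of polyA RNA in mouse embryonic stem (ES) cells. ES cells are pluripotent cells that can be maintained in culture or allowed to differentiate. The 12 libraries came from wild-type (WT) ES cells, from SUV420H2 knockout cells (KO) and from SUV420H1/H2 double knockout cells (DKO). SUV420H1 and SUV420H2 are enzymes that methylate lysine 20 of histone H4. Undifferentiated ES cells of each genotype gave 2 libraries and were kept on gelatin, free of feeder cells, in medium with 1.5 µM of a GSK3 inhibitor. Differentiated cells of each genotype gave 1 library at day 8 and 1 at day 12. The labels do not say how the cells were differentiated, how many clones each genotype represents or whether the ES replicates were separate cultures, so the p-values measure the spread between these libraries, which may be technical. Among differentiated libraries this spread also holds differences between days and genotypes.

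In the mouse embryo the first red cells arise in the yolk sac and carry embryonic hemoglobins. Hba-x encodes the zeta-like chain and stands with Hba-a1 and Hba-a2 in the alpha-globin cluster on chromosome 11. Hbb-bh1 and Hbb-y encode embryonic beta-like chains and lie with the adult genes Hbb-b1 and Hbb-b2 in the beta-globin cluster on chromosome 7. Alas2 makes the erythroid form of the enzyme that starts heme synthesis. GATA1 binds GATA motifs and KLF1 binds CACCC-type motifs, and both are needed for red cell gene expression. Primitive red cells start with a high proportion of zeta-like and beta-h1 chains and shift toward alpha and epsilon-y chains as they mature.

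The 250 bases upstream of the start of 6 of these genes are shown, as searched for the motifs these factors are known for. They are RefSeq sequences on GRCm38.p6, a later build than the mm9 used for the deposited values, printed 5′ to 3′ on the strand of the gene. Hba-x is at chr11:32276350-32276599 and Hba-a1 at chr11:32283422-32283671, both on the plus strand. Hbb-y is at chr7:103853208-103853457 on the minus strand and Alas2 at chrX:150547167-150547416 on the plus strand. Gata1 is at chrX:7967911-7968160 on the minus strand and Klf1 at chr8:84901732-84901981 on the plus strand. Capitals mark 4 kinds of motif. GATA motifs are AGATAA and TGATAA, or AGATAG and also TGATAG, on either strand. CACCC motifs are CCACCC and, in a longer form, CCACACCC, on either strand. The letters CCAAT were sought on either strand, and TATAAA on the strand of the gene.
Hba-x: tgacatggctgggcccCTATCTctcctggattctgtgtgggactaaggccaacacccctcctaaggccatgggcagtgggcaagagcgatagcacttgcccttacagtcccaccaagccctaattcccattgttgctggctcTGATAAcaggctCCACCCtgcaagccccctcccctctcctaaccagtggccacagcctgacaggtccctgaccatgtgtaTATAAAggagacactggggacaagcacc
Hba-a1: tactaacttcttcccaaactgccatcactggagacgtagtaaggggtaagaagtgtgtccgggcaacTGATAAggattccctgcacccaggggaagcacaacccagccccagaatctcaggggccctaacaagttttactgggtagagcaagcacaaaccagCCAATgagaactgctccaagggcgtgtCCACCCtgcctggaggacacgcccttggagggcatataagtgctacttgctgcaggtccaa
Hbb-y: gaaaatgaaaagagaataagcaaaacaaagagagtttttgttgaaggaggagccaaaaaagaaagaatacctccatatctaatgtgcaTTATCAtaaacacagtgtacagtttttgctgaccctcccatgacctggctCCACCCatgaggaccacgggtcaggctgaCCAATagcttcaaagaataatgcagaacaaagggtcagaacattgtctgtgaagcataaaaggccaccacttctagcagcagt
Alas2: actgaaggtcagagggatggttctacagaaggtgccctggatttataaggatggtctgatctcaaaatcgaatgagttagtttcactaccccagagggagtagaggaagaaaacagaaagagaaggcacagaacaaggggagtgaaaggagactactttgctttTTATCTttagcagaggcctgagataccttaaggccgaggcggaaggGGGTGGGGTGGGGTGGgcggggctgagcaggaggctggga
Gata1: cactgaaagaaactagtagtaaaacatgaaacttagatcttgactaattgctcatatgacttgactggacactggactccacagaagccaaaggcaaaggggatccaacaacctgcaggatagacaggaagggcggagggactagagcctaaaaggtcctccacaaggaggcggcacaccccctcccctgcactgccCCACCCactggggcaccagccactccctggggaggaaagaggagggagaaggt
Klf1: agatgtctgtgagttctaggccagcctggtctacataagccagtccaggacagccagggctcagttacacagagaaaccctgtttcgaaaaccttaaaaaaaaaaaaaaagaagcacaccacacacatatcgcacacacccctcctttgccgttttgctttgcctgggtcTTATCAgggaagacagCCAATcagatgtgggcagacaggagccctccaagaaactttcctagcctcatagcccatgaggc

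Hba-x had 2 GATA motifs, and Hba-a1, Hbb-y, Alas2 and Klf1 had 1 each. No GATA motif of these letters was in the Gata1 window. A GATA motif occurred in 26.5% of the 32851 promoter windows of the same length in the RefSeq table. Hba-x, Hba-a1, Hbb-y and Gata1 had 1 CACCC motif each and Alas2 had 3 that overlap at their ends, against 30.1% of all windows with at least 1. The Klf1 window had no CACCC motif of these letters. In Hba-x the GATA motif TGATAA ended 103 bases upstream of the start and the CACCC motif began 96 bases upstream. TATAAA was in the Hba-x window, from 28 to 23 bases upstream, and in 7.59% of all windows. CCAAT was in the Hba-a1, Hbb-y and Klf1 windows and in 33.8% of all windows. The RefSeq promoter entry of Hba-a2, which runs past the start of the gene beyond the stretch shown here, matched that of Hba-a1 at 297 of 297 overlapping bases and is not printed. For Hbb-bh1 there was no entry among the RefSeq promoters used. A match is a description of letters and was not tested for binding.

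The libraries held 22538336 to 26675600 reads in genes, counted over the longest model of each gene. Suv420h2 was at 25.8 to 33.2 RPKM (reads per kilobase of transcript, scaled to sequencing depth) in the 4 WT libraries and at 3.37 to 10.7 RPKM in the 8 KO and DKO libraries. Suv420h1 was at 5.30 and 5.77 RPKM in DKO ES cells and at 3.78 and 4.18 RPKM in WT ES cells. Its level therefore did not mark the second deletion, and the labels do not say which part was deleted. The 10 pluripotency markers summed to 1871 to 3212 RPKM in the 6 ES libraries. After differentiation they summed to 302 and 288 RPKM in WT, 1680 and 820 RPKM in KO, and 2587 and 1468 RPKM in DKO, at day 8 and day 12. Utf1 made up 790 RPKM of the DKO day 8 sum. The list median was 128 to 190 RPKM in the ES libraries. After differentiation it was 24.0 and 14.4 RPKM in WT, 107 and 80.6 RPKM in KO, and 97.8 and 110 RPKM in DKO. By the median DKO was thus below the ES range at both days, and lower at day 8 than at day 12. The differentiated libraries therefore differ in how much of the ES cell marker signal they keep, and the part of this in the results below was not tested. In bulk RNA, fewer cells of a type and less RNA per cell cannot be told apart.

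Embryonic globin RNA was found after differentiation in WT and KO and not in DKO. Hba-x had 0 reads in each of the 6 ES libraries. It had 53940 reads (2003 RPKM) in WT at day 8 and 746 reads (27.9 RPKM) in WT at day 12. KO had 543 reads (21.05 RPKM) at day 8 and 3903 reads (141.0 RPKM) at day 12. The DKO libraries had 0 reads at both days, where a count of 0 allows up to 3 reads, or 0.110 RPKM at day 8 and 0.117 RPKM at day 12. The ES and DKO libraries thus share a level of 0, and the 4 other libraries do not overlap with them.

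Hbb-bh1, which encodes the beta-h1 chain, also had 0 reads in the 6 ES libraries and in both DKO differentiated libraries. WT had 35597 reads (1300 RPKM) at day 8 and 218 reads (8.03 RPKM) at day 12. KO had 1071 reads (40.8 RPKM) at day 8 and 2819 reads (100.2 RPKM) at day 12. Hbb-y, the epsilon-y gene, had 2 reads in DKO ES replicate 1 and 0 in the other 5 ES libraries. In WT it had 10880 reads (392 RPKM) at day 8 and 365 reads (13.3 RPKM) at day 12. In KO it had 113 reads (4.25 RPKM) at day 8 and 1206 reads (42.2 RPKM) at day 12, and in DKO 0 reads at both days. The 3 embryonic globins thus ranked the 4 positive libraries with WT day 8 highest and KO day 12 next. Each of these is a single library.

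Hba-a1 and Hba-a2, the alpha-globin genes used in embryonic and adult red cells, could not be counted apart. Their reads were equal in 9 of 12 libraries and differed by at most 9 reads in the others, and their aligned GENCODE transcripts had 1 mismatch over 538 bases. They are therefore given as 1 measurement through Hba-a1, but counts out of 8 genes below hold both. Hba-a1 had 15 and 9 reads in WT ES cells, 12 and 9 in KO ES cells, and 3 and 73 in DKO ES cells. This corresponds to 0.461 ± 0.173 RPKM (SD, n = 2) in WT ES, 0.407 ± 0.0738 RPKM (SD, n = 2) in KO ES and 1.41 ± 1.81 RPKM (SD, n = 2) in DKO ES cells. DKO ES replicate 2 stood apart from the other 5 ES libraries. That library also had 27 reads of Hbb-b1, a count identical to that of its copy Hbb-b2, and 0 reads of the 3 embryonic globins. After differentiation Hba-a1 had 20055 reads (799 RPKM) and 1071 reads (43.1 RPKM) in WT at day 8 and day 12. KO had 198 reads (8.24 RPKM) and 3105 reads (120.4 RPKM), and DKO had 19 reads (0.749 RPKM) and 21 reads (0.876 RPKM). The 2 DKO differentiated libraries lay above the 5 other ES libraries, which had 3 to 15 reads, and below DKO ES replicate 2.

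Alas2 had 18 and 23 reads in WT ES cells, 23 and 19 in KO ES cells and 10 and 29 in DKO ES cells, at 0.122 to 0.302 RPKM. It had 2045 reads (23.0 RPKM) in WT at day 8, with 49 reads (0.557 RPKM) at day 12. KO had 60 reads (0.705 RPKM) at day 8 and 143 reads (1.57 RPKM) at day 12, and DKO had 5 reads (0.0557 RPKM) and 13 reads (0.153 RPKM). WT day 8 was the high library, and the DKO libraries were below or within the ES range.

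Gata1 had 25 and 50 reads in WT ES cells, 65 and 83 in KO ES cells and 24 and 16 in DKO ES cells. The levels were 0.441 ± 0.198 RPKM (SD, n = 2) in WT, 0.891 ± 0.172 RPKM (SD, n = 2) in KO and 0.251 ± 0.0970 RPKM (SD, n = 2) in DKO ES cells. WT had 2508 reads (30.9 RPKM) at day 8 and 99 reads (1.23 RPKM) at day 12. KO had 186 reads (2.39 RPKM) and 224 reads (2.69 RPKM), and DKO 14 reads (0.171 RPKM) and 12 reads (0.155 RPKM). In KO the days differed little, with a day 12 to day 8 ratio of 1.12 (exact 95% counting interval 0.920 to 1.37).

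Klf1 was the member with the highest level in 5 of the 6 ES libraries and the one that was above 1 RPKM in the differentiated DKO libraries. It had 72 and 55 reads in WT ES cells, 116 and 89 in KO ES cells and 42 and 58 in DKO ES cells. This gave 0.886 ± 0.188 RPKM (SD, n = 2) in WT, 1.45 ± 0.239 RPKM (SD, n = 2) in KO and 0.719 ± 0.0850 RPKM (SD, n = 2) in DKO ES cells. WT had 1760 reads (25.6 RPKM) at day 8 and 56 reads (0.821 RPKM) at day 12, the latter within the range of the ES libraries. KO had 223 reads (3.38 RPKM) and 295 reads (4.17 RPKM), and DKO had 84 reads (1.21 RPKM) and 124 reads (1.89 RPKM). At day 12 Klf1 in WT was 0.435 of the level in DKO (exact 95% counting interval 0.312 to 0.601), an order opposite to that of the globins.

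**Figure D1:**
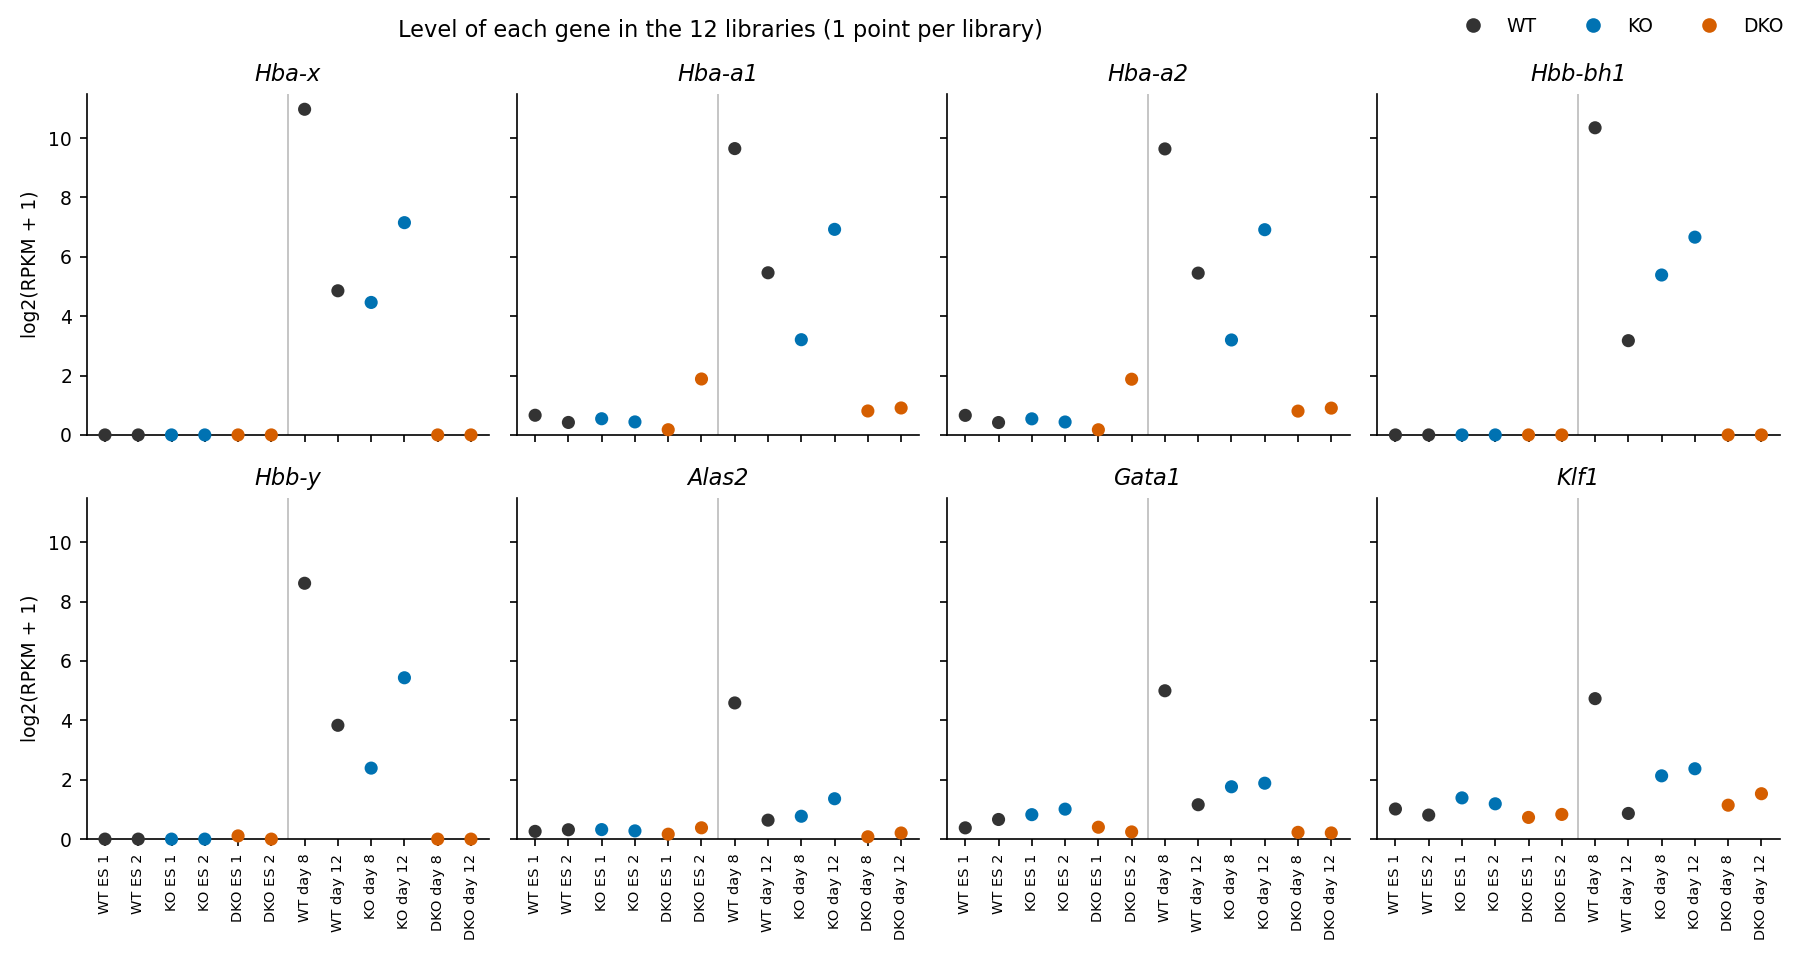
Level of each of the 8 genes, as log2(RPKM + 1), in the 12 libraries, with 1 point per library and the vertical line separating ES from differentiated cells. WT day 8 is the highest point for each gene, and the 3 embryonic globins lie at 0 in the DKO differentiated libraries.

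The WT and KO lines moved in opposite directions between the 2 days. Hba-x reads, scaled to the library totals, were 71.7 times as high in WT at day 8 as at day 12 (exact 95% counting interval 66.7 to 77.1). In KO they were 6.70 times as high at day 12 as at day 8 (6.12 to 7.34). For Hbb-bh1 the corresponding ratios were 162 (142 to 186) in WT and 2.45 (2.29 to 2.64) in KO, and for Hbb-y 29.5 (26.6 to 32.9) and 9.95 (8.20 to 12.2). Hba-a1 gave 18.6 (17.5 to 19.8) and 14.6 (12.7 to 17.0), and Alas2 gave 41.4 (31.2 to 56.1) and 2.22 (1.63 to 3.06). These intervals cover counting error only, because each genotype had 1 library per day. Over the 3 genotypes, edgeR's quasi-likelihood test of day 12 against day 8 called 0 of 8 genes, with 0% of 12896 genes called. DESeq2 and limma also called 0 of 8. At an unadjusted p under 0.05 there were 0 of 8, against 1582 over all genes. In this test the genotypes stood as the replicates, so the opposite movements of WT and KO entered its spread. It therefore cannot decide whether a level changed between the days within a genotype.

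WT and KO also changed order between the days. At day 8 Hba-x was 95.2 times as high in WT as in KO (87.5 to 104), and at day 12 it was 5.05 times as high in KO as in WT (4.66 to 5.46). Hbb-bh1 was 31.8 times as high in WT at day 8 (30.0 to 33.9) and 12.5 times as high in KO at day 12 (10.9 to 14.4). Against DKO the embryonic globins allow lower bounds, with the DKO level set to 3 reads per library. Hba-x was at least 18171-fold higher in WT than in DKO at day 8 and at least 240-fold higher at day 12. In KO it was at least 191-fold higher than in DKO at day 8 and at least 1209-fold higher at day 12.

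The makeup of the globin reads differed between days in both lines. Hba-x was 72.9% of the alpha-like reads (Hba-x plus Hba-a1) in WT at day 8 (Wilson 95% interval 72.6 to 73.2) and 41.1% at day 12 (38.8 to 43.3). In KO it was 73.3% at day 8 (70.0 to 76.3) and 55.7% at day 12 (54.5 to 56.9). The share of Hba-x was thus close in WT and KO at day 8, with overlapping intervals, although the read totals of the family differed, at 73995 and 741. Hbb-bh1 was 76.2% of the beta-like reads (Hbb-bh1, Hbb-y and Hbb-b1) in WT at day 8 (75.8 to 76.5) and 33.0% at day 12 (29.5 to 36.7). In KO it was 89.1% (87.2 to 90.7) and 69.0% (67.5 to 70.4). Hbb-y took a larger share at day 12, with 23.3% and 55.3% in WT and 9.40% and 29.5% in KO at day 8 and day 12. The adult gene Hbb-b1 was 11.7% of beta-like reads in WT at day 12 (9.44 to 14.3) and 0.567% to 1.54% in the 3 other libraries. The lower Hba-x and Hbb-bh1 shares at day 12 were seen in both lines, while the total amount of globin fell in WT and rose in KO between the days. Globins made up 0.460% of the reads in genes in WT at day 8, 0.00929% in WT at day 12, 0.00862% in KO at day 8 and 0.0428% in KO at day 12. No replicate checks these shares.

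**Figure D2:**
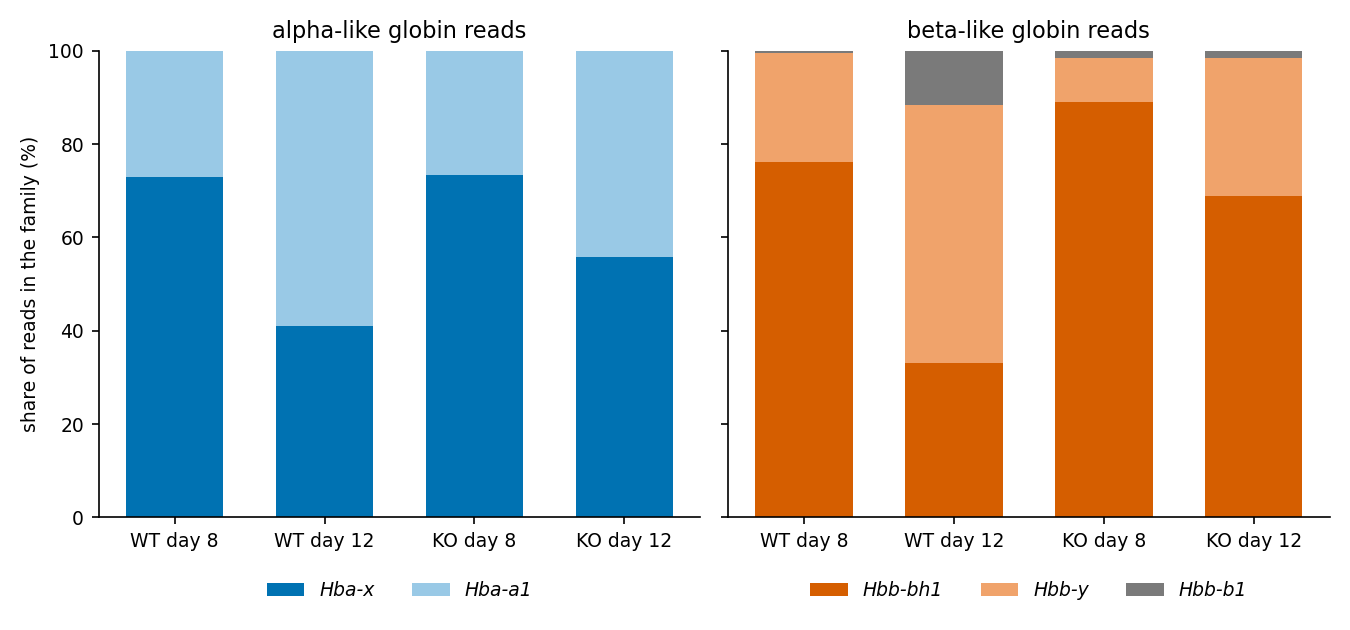
Share of each globin gene within the alpha-like reads (left) and the beta-like reads (right), in percent, for the 4 libraries with globin reads; each bar is 1 library and Hba-a2 and Hbb-b2 are left out as copies. Hba-x falls from 72.9% to 41.1% in WT and from 73.3% to 55.7% in KO between day 8 and day 12.

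Comparing the 6 differentiated with the 6 ES libraries, with genotype as a covariate, tests the change averaged over the 3 genotypes, which need not be present in each. Hba-x (edgeR adjusted p = 0.0154), Hbb-bh1 (adjusted p = 0.0176) and Hbb-y (adjusted p = 0.0031) were called higher, which makes 3 of 8 genes. Of 13429 genes tested, 35.8% were called, 20.1% higher and 15.7% lower. Both DKO differentiated libraries had 0 reads of these 3 genes, so the calls rest on WT and KO. Their fitted fold changes are not printed, because the ES level was 0 or 2 reads in all and the fit then depends on the prior count. The log2 change of Hba-a1 was 6.17 (SE 2.38) and missed the threshold at an edgeR adjusted p of 0.0636. Klf1 came to 1.94 (SE 0.73) with an edgeR adjusted p of 0.0591. Alas2, with 2.26 (SE 1.30, edgeR adjusted p = 0.188), and Gata1, with 1.85 (SE 1.06, adjusted p = 0.187), did not pass either. DESeq2 called 7 of the 8 genes and limma 5. Over all genes tested the median log2 fold change was 0.02.

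Within WT, 8 of 8 genes were called higher in differentiated cells, with Hba-a1 and Hba-a2 counted from the same reads. Over all genes 31.2% were called higher and 29.8% lower (61.1% in either direction). Hba-a1 rose by 9.62 on the log2 scale (SE 2.18, edgeR adjusted p = 0.00536) and Alas2 by 5.18 (SE 1.51, adjusted p = 0.0167). Gata1 rose by 4.34 (SE 1.07, edgeR adjusted p = 0.00808) and Klf1 by 3.27 (SE 1.15, adjusted p = 0.0365). Of these 8, only Klf1 reached 1 RPKM in 2 or more ES libraries, the level a gene needed to be tested. The others entered the test through differentiated libraries, where they were high. Alas2 reached 1 RPKM only in WT day 8 and KO day 12, and could not be tested when either was left out. These fits take 2 WT differentiated libraries of different days together and share the spread of all groups. WT day 8 carried much of it: without that library fewer of these genes were called, and the fitted log2 change of Klf1 was −0.34. Fewer were also called without WT ES replicate 1 or replicate 2. The count over all genes was lowest without WT ES replicate 2.

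Within KO, Hba-a1 and Hba-a2, counted from the same reads, were called higher, which makes 2 of 8 genes, against 15.8% of all genes higher and 13.5% lower (29.3% in either direction). Hba-a1 rose by 7.14 on the log2 scale (SE 2.09, edgeR adjusted p = 0.0353). Hbb-y (edgeR adjusted p = 0.0702), Hbb-bh1 (adjusted p = 0.0812) and Hba-x (adjusted p = 0.091) did not pass, although both KO differentiated libraries had reads and both KO ES libraries had 0. At an unadjusted p under 0.05 there were 5 of 8 genes within KO, against 5716 of 13429 over all genes. DESeq2 called 4, and limma called 4 on log2(RPKM + 1) and 5 on log2(RPKM + 0.1). Gata1 had a log2 change of 1.57 (SE 0.96) and Klf1 of 1.34 (SE 1.04), and neither passed. The KO count was higher without WT day 12, WT day 8 or KO day 8. It was lower without any 1 of the KO or WT ES libraries. The count over all genes moved too, and was highest without WT day 12 and lowest without KO ES replicate 2. Within DKO, edgeR called 0 of 8 genes, against 19.7% of all genes (10.4% higher and 9.24% lower). DESeq2 and limma also called 0 of 8. At an unadjusted p under 0.05 there were 0 of 8 within DKO, against 4841 of 13429 over all genes. The DKO log2 changes were −0.94 (SE 1.94) for Hba-a1, −1.05 (SE 1.49) for Alas2, −0.69 (SE 1.14) for Gata1 and 1.15 (SE 1.07) for Klf1. Without DKO ES replicate 2, the library with adult globin reads, the Hba-a1 value was 2.56. Without WT day 8 or WT day 12 a call appeared within DKO, and the count over all genes was highest without WT day 12.

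**Figure D3:**
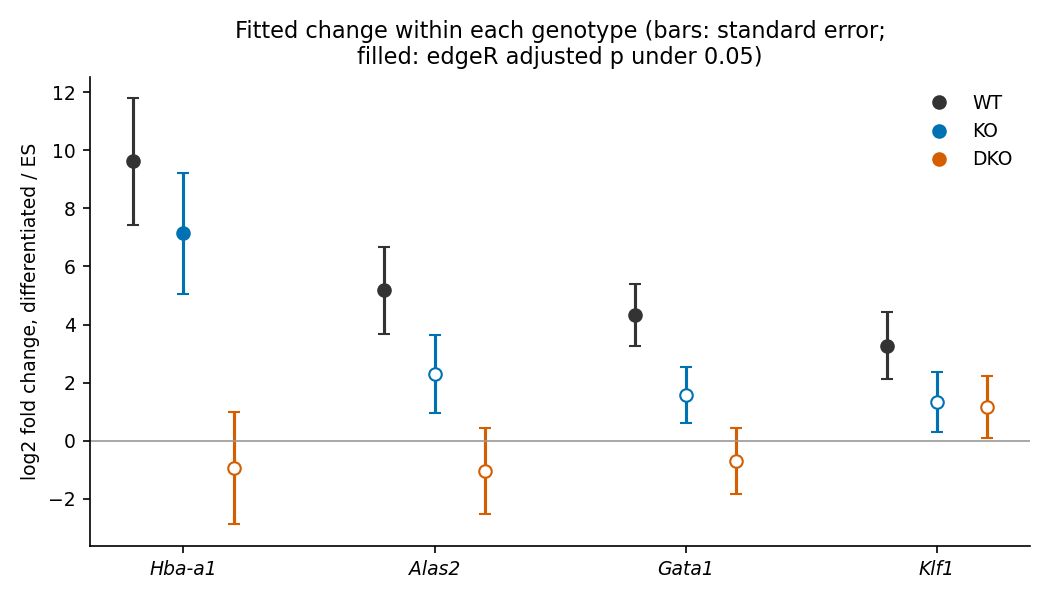
Fitted log2 fold change of differentiated over ES cells within WT, KO and DKO for the 4 genes with reads in most ES libraries; bars are standard errors and filled points passed edgeR's adjusted p threshold of 0.05. The WT points lie from 3.27 to 9.62, and the DKO points of Hba-a1, Alas2 and Gata1 lie below 0.

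Whether the change itself differed from that in WT was tested as an interaction of genotype and state. For DKO against WT, 4 of 8 genes tested were called lower and 0 higher, against 20.8% and 21.1% of all genes (42% in either direction). The difference of log2 changes was −10.56 (SE 2.87, edgeR adjusted p = 0.0194) for Hba-a1, and the same for Hba-a2 from the same reads. It was −6.23 (SE 2.17, edgeR adjusted p = 0.0481) for Alas2 and −5.03 (SE 1.56, adjusted p = 0.0317) for Gata1. Klf1, with −2.12 (SE 1.62, edgeR adjusted p = 0.322), did not pass. Hba-x, Hbb-bh1 and Hbb-y are among the 8 but gave no usable test, because DKO had 2 reads or fewer of each in either state. The count was higher without WT day 12 and lower without DKO ES replicate 2, DKO day 8 or either WT ES library. The count over all genes was highest without WT day 12 and lowest without WT ES replicate 1. For KO against WT, edgeR called 0 of 8 genes, against 16.3% of all genes (9.07% higher and 7.24% lower). DESeq2 and limma also called 0 of 8. At an unadjusted p under 0.05 there were 0 of 8, against 4463 of 13429 over all genes. Without WT day 12 more were called, both of these 8 and of all genes. Hba-x, Hbb-bh1 and Hbb-y gave no usable test here either, with 0 reads in the WT and KO ES libraries.

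Among the 6 differentiated libraries, with day as a covariate, edgeR called 0 of 8 genes for KO against WT, with 0% of 12896 genes called. DESeq2 and limma also called 0 of 8. At an unadjusted p under 0.05 there were 0 of 8, against 3002 over all genes. The days stood as the replicates, so the changed order of WT and KO between the days entered the spread. This test therefore cannot decide whether KO and WT differed at a single day. For DKO against WT edgeR called 0 of 8, against 2.18% of genes (1.52% higher and 0.659% lower). At an unadjusted p under 0.05 there were 7 of 8, against 3970 of 12896 over all genes. DESeq2 called 7, limma on log2(RPKM + 1) called 0 and limma on log2(RPKM + 0.1) called 3. The lowest adjusted p there was 0.0942, for Gata1, with a log2 fold change of −5.80 (SE 1.54) by edgeR. Without WT day 12 or WT day 8 the count for DKO against WT was higher, and the count over all genes was highest without WT day 12. For DKO against KO edgeR called 0 of 8, against 0.00775% of genes, with 6 by DESeq2 and 0 by limma. At an unadjusted p under 0.05 there were 5 of 8, against 2161 of 12896 over all genes. Without WT day 12 or WT day 8 more of the 8 were called, and the count over all genes was highest without WT day 8. DESeq2 also called more of all genes than edgeR, for DKO against WT and for DKO against KO. These comparisons share libraries with each other and with those above.

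In ES cells Klf1 was the 1 member that passed the level filter, and edgeR called it in neither genotype with all 6 libraries. Its log2 change in KO against WT was 0.75 (SE 0.31) at an edgeR adjusted p of 0.0692, where 42.7% of 12044 genes were called, 23.5% higher and 19.2% lower. Klf1 was called in this comparison by limma on log2(RPKM + 1), not by DESeq2 or limma on log2(RPKM + 0.1), and by edgeR without DKO ES replicate 1 or replicate 2. Leaving out each library, its edgeR adjusted p ranged from 0.0402 to 0.376. In DKO against WT the value was −0.28 (SE 0.33, edgeR adjusted p = 0.462), where 63.9% were called, 32.2% higher and 31.7% lower. Gata1 and Alas2 lie on the X chromosome, whose genes had a median log2 fold change of 0.92 in KO against WT ES cells, with 338 of 432 called higher, and of −0.09 in DKO against WT ES cells. The part of this in the KO values of Gata1 and Alas2 was not tested.

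Other genes of the red cell program followed the same libraries to different degrees. The list of 26 transcription factor genes of erythroid cells includes the members Gata1 and Klf1. Of the 26, 16 rose and 3 fell within WT, 9 rose and 1 fell within KO, and 4 rose and 5 fell within DKO. The median log2 change was 2.61, 1.27 and 0.05. Over all genes 31.2% rose and 29.8% fell within WT, 15.8% and 13.5% within KO, and 10.4% and 9.24% within DKO. Runx1, a factor of blood cell emergence, was at 7.86 and 4.83 RPKM in WT at day 8 and day 12, 1.59 and 2.35 RPKM in KO and 0.291 and 2.65 RPKM in DKO. Averaged over genotypes Runx1 rose by 4.18 on the log2 scale (SE 0.70, edgeR adjusted p = 0.00278). Zfpm1, the GATA1 cofactor FOG1, rose by 3.82 (SE 0.66, edgeR adjusted p = 0.003), with 218 and 71.5 RPKM in WT, 31.8 and 76.3 RPKM in KO, and 4.84 and 30.6 RPKM in DKO. Lyl1, a partner of the blood stem cell factors, rose by 4.74 (SE 0.90, edgeR adjusted p = 0.00439). In the interaction of DKO with WT, 15 of the 26 genes were called lower and 5 higher, against 20.8% and 21.1% of all genes, so the number higher is near the background. Among those lower were Lmo2 by −4.61 and Gata2 by −6.16, and Gata2 was at 10.9 and 7.78 RPKM in DKO ES cells against 1.67 and 2.27 RPKM in WT ES cells. In ES cells Lmo2 and Gata2 were called higher in DKO than in WT, by 1.87 and 2.24 on the log2 scale. So were Sox6, Foxo3, Bach1, Klf3, Nfe2l2 and Mafk, which were also lower in the interaction. Of the others lower, Zfpm1 and Zbtb7a were not called in ES cells and the rest missed the level filter there. The part of a higher ES level in these interaction values was not tested. Without WT day 8 fewer of these factor genes were called higher within WT and fewer lower in the interaction.

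Of 19 genes of heme synthesis and mitochondrial import, Alas2 included, 7 rose and 2 fell within WT. The share that rose is near the 31.2% of all genes that did. Within KO 0 rose and 1 fell, and within DKO edgeR called 0 in either direction. The genes that rose in WT were Alas2, Cpox, Ppox, Fech, Slc25a37, Abcb10 and Blvrb. Alas1, the housekeeping counterpart of Alas2, stayed between 4.61 and 8.93 RPKM in the 12 libraries. Slc25a37, the mitoferrin that carries iron into mitochondria, was at 56.4 RPKM in WT at day 8 and at 4.68 to 11.4 RPKM in the 11 other libraries. Ferrochelatase (Fech), the last enzyme of the pathway, was at 11.7 RPKM in WT at day 8 and at 3.31 to 6.48 RPKM elsewhere. Averaged over genotypes Abcb10, a mitochondrial transporter, rose by 1.05 (SE 0.26, edgeR adjusted p = 0.013) and Ppox by 1.15 (SE 0.29, adjusted p = 0.0141), while Slc25a38, a mitochondrial glycine carrier, fell by 0.51 (SE 0.14, adjusted p = 0.0197). Of 14 iron genes tested, 2 rose and 0 fell, against 20.1% of all genes higher and 15.7% lower: the iron exporter Slc40a1 by 4.68 (SE 0.52, edgeR adjusted p = 0.00057) and Glrx5 by 0.53 (SE 0.18, adjusted p = 0.0452). Hfe2, a regulator of iron balance, had a log2 change of −1.36 (SE 0.49, edgeR adjusted p = 0.0514).

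Of 14 red cell membrane and cytoskeleton genes tested, 6 rose and 0 fell on average over the genotypes, against 20.1% of all genes called higher. Cd59a rose by 3.68 (SE 0.59, edgeR adjusted p = 0.00235), the glucose transporter gene Slc2a1 by 1.63 (SE 0.28, adjusted p = 0.00281) and the spectrin gene Spnb1 by 3.04 (SE 0.56, adjusted p = 0.00401). The anion exchanger gene Slc4a1 was at 17.4 RPKM in WT at day 8 and at 1.88 RPKM or less in the 11 other libraries. Of 13 red cell enzyme and chaperone genes, 5 rose and 0 fell, among them Car2 by 1.03 (SE 0.19, edgeR adjusted p = 0.00398) and Mgst3 by 0.94 (SE 0.21, adjusted p = 0.00856). The blood factor gene Tal1, which is in both this list and that of the factors, rose by 2.90 (SE 0.70, edgeR adjusted p = 0.0117). Of 14 genes of erythropoietin and Kit signalling, 7 rose and 2 fell, with Stat5a at 1.57 (SE 0.27, edgeR adjusted p = 0.00311) and Jak2 at 2.07 (SE 0.44, adjusted p = 0.00695) among those that rose and Gab1 at −0.77 (SE 0.14, adjusted p = 0.00368) among those that fell. Car1, a carbonic anhydrase of later red cells, had at most 0.0559 RPKM in any library.

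Markers of other cell types followed the globins to different degrees. Of 12 megakaryocyte and platelet genes tested, 10 rose on average over the genotypes, and 4 of 9 did without WT day 8. With all 12 libraries 20.1% of all genes rose and 15.7% fell, the shares to set beside the list counts of this paragraph. The share over all genes without WT day 8 is not given here. Pf4, a platelet factor gene, was called higher (edgeR adjusted p = 0.0203), with 1098 and 134 reads in WT, 0 and 454 in KO and 0 and 0 in DKO at day 8 and day 12, and 0 to 3 reads in the ES libraries. The 13 markers summed to 228 and 41.3 RPKM in WT at day 8 and day 12, 8.60 and 65.8 RPKM in KO, 1.12 and 1.54 RPKM in DKO and 1.30 to 3.57 RPKM in ES cells. Among the differentiated libraries this is the order of the summed globin list, which holds Hba-a2 and Hbb-b2 beside their copies. Of the 13 markers, 7 had 0 reads in each DKO differentiated library. Of 20 endothelial genes 14 rose, among them the VEGF receptor gene Flt1 by 5.59 (SE 0.65, edgeR adjusted p = 0.000674), and their sum was 515 and 366 RPKM in WT, 99.4 and 190 RPKM in KO, 50.7 and 149 RPKM in DKO and 34.4 to 66.3 RPKM in ES cells. The endothelial sum at WT and DKO day 12 included 259 and 95.8 RPKM of Sox17, which endoderm also expresses. The endothelial sum at DKO day 12, most of it Sox17, was above that at KO day 8. The list median went the other way, at 0.921 RPKM in DKO day 12 and 3.35 RPKM in KO day 8. At 1 RPKM or more there were 10 of the 20 genes in DKO day 12 and 18 in KO day 8. Of 13 macrophage and leukocyte genes 5 rose and 1 fell, with a sum of 69.1 and 125 RPKM in WT, 19.0 and 68.3 RPKM in KO and 33.5 and 21.2 RPKM in DKO. In ES cells the sum was 30.9 to 38.5 RPKM in WT and KO, and 126 and 98.4 RPKM in DKO. Laptm5 made up 111 and 87.2 RPKM of the DKO ES sums. The macrophage sum was higher at day 12 than at day 8 in WT, where the globin sum was lower. Yolk sac endoderm genes took another order: 14 of 16 rose, and their sum was 321 and 490 RPKM in WT, 11.9 and 427 RPKM in KO, 39.9 and 554 RPKM in DKO and 3.56 to 10.1 RPKM in ES cells. Afp, the alpha-fetoprotein gene, was called higher (edgeR adjusted p = 0.00176), with 402 and 2063 reads in WT, 29 and 2573 in KO and 15 and 1307 in DKO, and 0 or 1 in the ES libraries. DKO at day 12 thus had the highest endoderm sum of the 12 libraries and no embryonic globin reads. The part of these other cell types in the globin values was not tested.

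**Figure D4:**
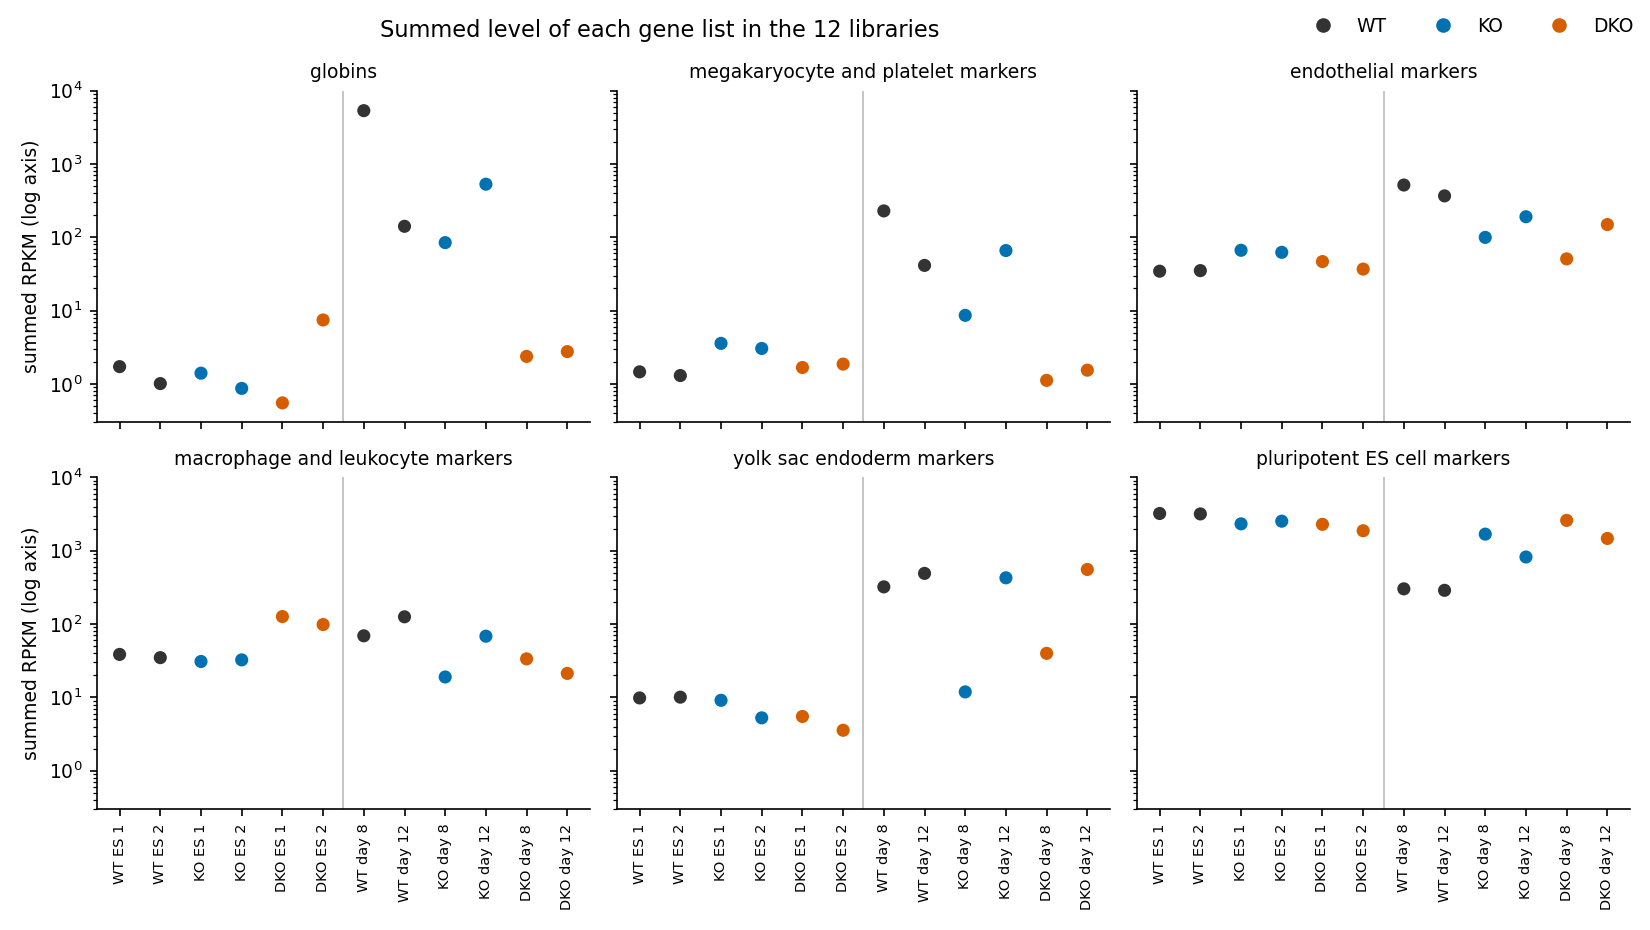
Summed RPKM (log axis) of the globin list and of 5 cell type marker lists in the 12 libraries, with 1 point per library and ES cells left of the line. The globin sum holds Hba-a2 and Hbb-b2 beside their copies Hba-a1 and Hbb-b1, so those reads enter it more than once. The globin and megakaryocyte sums share WT day 8 as the highest and DKO as the lowest differentiated libraries, while the endoderm sum is highest in DKO day 12.

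The genes whose levels ran closest to those of the members across the 12 libraries were found by Pearson correlation of log2(RPKM + 1), given as a description of libraries that share genotype and day. For Hba-x they were Cdh5 (0.996), Gypc (0.995), Fli1 (0.995), Hbb-y (0.994) and Rgs5 (0.993). Cdh5 is the cadherin of endothelial cells and Gypc encodes a glycophorin. For Hbb-bh1 they were Hapln1 (0.999), Rhoj (0.993), Mir433 (0.993), Hba-x (0.988) and Rgs5 (0.987). For Hbb-y they were Itga2b (0.996), the platelet and early blood progenitor integrin CD41, Gypc (0.996), Plek (0.994), Hba-x (0.994) and Ldb2 (0.993). Without WT day 8, over 11 libraries, these 3 sets kept correlations of 0.973 to 0.997.

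Over the 12 libraries Alas2, Gata1 and Klf1 ran closest to other genes than the embryonic globins did. For Alas2 they were Mfsd2b (0.990), Pfkfb4 (0.987), Gfi1b (0.986), Clec14a (0.984) and F2rl3 (0.983). For Gata1 they were Nfe2 (0.985), Gfi1b (0.985), P2ry1 (0.975), Rtl1 (0.975) and Alas2 (0.972). For Klf1 they were Mir126 (0.970), Gfi1b (0.969), Scarf1 (0.963), Ptpre (0.962) and F2rl3 (0.962). Gfi1b, a repressor of erythroid and megakaryocytic cells, was in each of these 3 sets, with 818 reads in WT day 8 and with 0 reads in both DKO differentiated libraries. Without WT day 8 these 3 sets had correlations of 0.809 to 0.936. The correlation of Klf1 with Hba-x then went from 0.862 to 0.671, and that of Alas2 with Hba-x from 0.884 to 0.939. Alas2 correlated with Hbb-bh1 at 0.941 in those 11 libraries, and with its 5 listed genes at 0.871 to 0.936. The order given for Alas2 thus depended on WT day 8.

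Within a library, the levels per length of transcript took a common order with exceptions. In WT at day 8 it was Hba-x, Hbb-bh1, Hba-a1, Hbb-y, Gata1, Klf1 and Alas2 from 2003 RPKM down to 23.0 RPKM. In WT at day 12 Hba-a1 came first at 43.1 RPKM and Hbb-bh1 came after Hbb-y. In KO at day 8 Hbb-bh1 came first at 40.8 RPKM, and at day 12 Hba-x came first at 141.0 RPKM. Alas2 was the lowest of the members in each of these 4 libraries. In the DKO differentiated libraries Klf1 was highest, at 1.21 and 1.89 RPKM.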

How the data were processed

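PolyA RNA of 12 libraries was analysed, from 3 genotypes in undifferentiated ES cells (2 libraries each) and at days 8 and 12 of differentiation (1 library each). Per the submitters' processing notes the reads were aligned with Bowtie2 to mm9. The deposited files give, for each of 29257 RefSeq transcript models, a raw read count and an RPKM value made by the authors; for the counting program, strand use and reads that map to several places, nothing is given in the sources used here. The longest model per symbol was kept (22878 symbols).

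Counts were tested with edgeR 4.0.16 (TMM, quasi-likelihood) in R 4.3.3, over genes that reached 1 RPKM in 2 or more of the libraries fitted, with Benjamini-Hochberg adjustment over all genes tested and a threshold of 0.05, in 12 comparisons. Alternatives were DESeq2 1.42.0, limma 3.58.1 on log2(RPKM + 1) and log2(RPKM + 0.1), other scalings, filters and transcript rows, single days, blocking on replicate number and omitting each library in turn. List counts without WT day 8 were added after seeing the data. Fits were tested on simulated data. Library ratios use reads in genes with exact binomial 95% intervals, shares use Wilson intervals, and a count of 0 is bounded by 3 reads. PCR duplicates are not marked by molecular identifiers, so intervals cover counting error only. Promoter letters were searched with Python 3.11.15. Named genes are the 8 members, up to 3 genes per list with the smallest adjusted p of differentiated against ES cells, and the 5 genes most correlated with each of 6 members; others were named after their values were seen. Members and lists were chosen with earlier results of these data known.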

Additional observations from a re-analysis of the deposited data

Results flagged for a closer look

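The change from ES to differentiated cells differed between DKO and WT by a test of the interaction for 4 genes, as the difference of log2 changes (edgeR quasi-likelihood test, adjusted p under 0.05): −10.56 for Hba-a1 and −10.56 for Hba-a2, which rest on the same reads, −6.23 for Alas2 and −5.03 for Gata1. The 8 genes moved one way from day 8 to day 12 in WT and the other way in KO, with 1 library per genotype and day, so this difference was not tested. On the log2(RPKM + 1) scale, day 12 minus day 8 was −6.11 in WT and 2.69 in KO for Hba-x, −7.17 in WT and 1.27 in KO for Hbb-bh1, −4.78 in WT and 3.04 in KO for Hbb-y, −4.18 in WT and 3.72 in KO for Hba-a1. It was −4.18 in WT and 3.71 in KO for Hba-a2, −3.95 in WT and 0.59 in KO for Alas2, −3.84 in WT and 0.12 in KO for Gata1, −3.87 in WT and 0.24 in KO for Klf1. The KO values of Gata1 and Klf1 are small, and the counting interval of the Gata1 ratio includes 1.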

How the results depend on the processing

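For KO against WT differentiated edgeR called 0 genes, with 1836 by DESeq2, 136 by limma on log2(RPKM + 1), 160 by limma on log2(RPKM + 0.1), 7 with no filter and 2 with library totals only. DKO against WT differentiated gave 281 by edgeR, and 3139, 714 and 911 with DESeq2 and the limma settings. DKO against KO differentiated gave 1, and 1176, 5 and 15. DESeq2 also gave 563 for day 12 against day 8 (edgeR 0) and 3308 for interaction KO against WT (edgeR 2190). With ES and day 8 libraries alone, differentiated against ES gave 1436 genes (edgeR with both days 4803) and differentiated against ES within DKO 5405 (2641). With ES and day 12 alone, differentiated against ES within DKO gave 5622 and differentiated against ES within KO 7414 (3933). At least 5 RPKM left 3265 for KO against WT ES (5142), where fewer genes were tested. The cause of the other changes was not tested. Leaving out each library in turn, the lowest and highest counts of genes were 2938 to 6165 for differentiated against ES, 5897 to 8615 for differentiated against ES within WT, 1010 to 5662 for differentiated against ES within KO, 506 to 4546 for differentiated against ES within DKO, 395 to 3891 for interaction KO against WT, 3612 to 6763 for interaction DKO against WT, 0 to 0 for KO against WT differentiated, 0 to 1816 for DKO against WT differentiated, 0 to 251 for DKO against KO differentiated, 0 to 0 for day 12 against day 8, 3206 to 6368 for KO against WT ES, 5930 to 7745 for DKO against WT ES. Of the 8 members, these counts were 3 to 6 for differentiated against ES, 2 to 8 for differentiated against ES within WT, 0 to 8 for differentiated against ES within KO, 0 to 1 for differentiated against ES within DKO, 0 to 5 for interaction KO against WT, 0 to 6 for interaction DKO against WT, 0 to 0 for KO against WT differentiated, 0 to 8 for DKO against WT differentiated, 0 to 5 for DKO against KO differentiated, 0 to 0 for day 12 against day 8. Alas2 missed the level filter without WT day 8 or KO day 12, so fewer than 8 were tested in those fits. Klf1, the 1 member tested in ES cells, gave 0 to 1 for KO against WT ES and 0 to 0 for DKO against WT ES.

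The replicate numbers of the ES libraries do not pair them (correlations of deviations −0.00600, −0.0472 and −0.100). With the number as a replicate block 4790 genes were called for KO against WT ES and 7437 for DKO against WT ES, against 5142 and 7692, and Klf1 was called in neither. For Hba-a1 and Hba-a2 levels, summing the reads of both rows gave a log2 change of 6.33. Of the fitted log2 changes of single members, 45 changed sign under an alternative, 42 of them on leaving out 1 library, and 2 of the 45 concerned a called value, Klf1 within WT. With ES and day 12 alone, Klf1 in differentiated against ES within WT was −0.20. By limma on log2(RPKM + 0.1), Hba-a1 and Hba-a2 in differentiated against ES within DKO were 0.19 and 0.19. The lowest and highest log2 changes on leaving out each library follow. The Alas2 ranges lack the fits without WT day 8 or KO day 12, its 2 highest libraries, because it then missed the level filter. In differentiated against ES within WT they were −0.34 to 4.87 (Klf1). In differentiated against ES within KO they were −0.29 to 2.88 (Gata1), −0.015 to 2.35 (Klf1). In differentiated against ES within DKO they were −1.85 to 2.56 (Hba-a1), −1.85 to 2.56 (Hba-a2), −2.98 to 0.38 (Alas2), −1.63 to 0.26 (Gata1), −0.38 to 2.33 (Klf1). In interaction KO against WT they were −5.95 to 1.03 (Hba-a1), −5.95 to 1.03 (Hba-a2), −3.66 to 1.52 (Klf1). In interaction DKO against WT they were −3.88 to 1.32 (Klf1). In KO against WT differentiated they were −6.48 to 2.25 (Hba-x), −5.93 to 0.87 (Hba-a1), −5.93 to 0.87 (Hba-a2), −4.90 to 3.56 (Hbb-bh1), −6.43 to 1.58 (Hbb-y), −3.53 to 0.96 (Gata1), −2.88 to 2.32 (Klf1). In DKO against WT differentiated they were −4.12 to 1.08 (Klf1). In DKO against KO differentiated they were −3.10 to 0.42 (Klf1). In day 12 against day 8 they were −6.04 to 2.62 (Hba-x), −2.55 to 2.55 (Hba-a1), −2.55 to 2.54 (Hba-a2), −7.21 to 1.18 (Hbb-bh1), −4.76 to 3.18 (Hbb-y), −2.34 to 0.30 (Klf1), −2.71 to 1.09 (Alas2).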
